A study of Mus musculus with 106 samples.

Results

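The levels of 10 genes of the Wnt signalling pathway were followed in single cells of mouse embryos on the way from epiblast to germ line, the first stage of which is the primordial germ cell (PGC). The 10 genes were taken by name: the ligands Wnt3, Wnt3a, Wnt5a and Wnt5b, the acyltransferase Porcn, the R-spondin Rspo3, and the pathway-responsive genes Axin2, Lef1, Sp5 and Dkk1. They make up 10 of the 18193 genes with a probe set of their own on the array, and all 10 were measured. Each array carried the amplified cDNA of 1 cell, and all embryos were of the C57BL/6 strain.

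Stage, genotype and the transcripts found in the cDNA define 11 groups. The Blimp1 (-/-) embryos gave 20 cells at the late-streak to no-bud stage (LS/0B Blimp1 KO) and 12 at the early to mid-bud stage (E/MB Blimp1 KO), chosen for a transcript of the null allele together with Oct4; Blimp1, the product of Prdm1, is a repressor that PGC formation needs. All other cells were wild type. The lineage began with 8 pre-streak (PS) posterior epiblast cells holding Oct4 and T, 7 early to mid-streak (E/MS) precursors and 17 LS/0B precursors, both chosen for Blimp1 and Oct4. It went on with 8 PGCs each at the E/MB stage, the early head fold (EHF) stage and embryonic day 8.25 (E8.25), chosen for Blimp1 and stella (Dppa3). Beside them stood 4 E/MB and 4 EHF cells holding Blimp1, Oct4 and Hoxb1 (Blimp1+ Hoxb1+ cells), and 10 posterior mesoderm cells from the base of the allantois at E/MB that held Oct4 and Hoxb1 but not Blimp1 (E/MB mesoderm). The 4 EHF Blimp1+ Hoxb1+ cells are given as E/MB in their titles and as EHF in their descriptions and source names. Dppa3, Hoxb1, Prdm1 and T helped to choose the cells, and none of the 10 Wnt genes did.

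Wnt proteins are secreted signals that carry a lipid, which the enzyme Porcn attaches and without which they are not released. In the canonical branch, a ligand such as Wnt3 or Wnt3a binds a Frizzled receptor with Lrp5 or Lrp6, beta-catenin escapes destruction by the Axin complex, and beta-catenin with factors such as Lef1 turns on target genes. R-spondins make cells more sensitive by sparing Frizzled receptors from removal, while Wnt5a and Wnt5b act mostly through branches that do not need beta-catenin. In the gastrulating mouse, Wnt3 is needed for the primitive streak and for PGC induction.

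Since no label says which embryo a cell came from, a group is treated as 1 sample: the values describe these cells, SDs are over cells, and no test was made. Signals are linear array intensities. Detection meant a signal above a limit set on each array, the 95th percentile of 126 background probe sets, which lay between 82.8 and 166. Means are of log2 signal after raising values below 70.2 (6.13 in log2) to that floor, and a difference of at least 1 log2 unit between group means was counted as a statement of size. The arrays showed 8981 to 14502 probe sets above the limit. Hybridisation controls averaged 11.07 on the log2 scale on the mesoderm arrays, with a range of 10.61 to 11.53, against 9.61 on all other arrays, with a range of 8.86 to 10.61. Xist, the RNA that coats the silenced X, was detected in 8 of 8 PS cells, 8 of 17 LS/0B precursors, 5 of 8 EHF PGCs and 1 of 4 cells in each Blimp1+ Hoxb1+ group, and in 0 cells of the other groups. The deleted gene, Prdm1, had signals with a median of 154 in LS/0B Blimp1 KO cells and 639 in LS/0B precursors, and of 185 in E/MB Blimp1 KO cells and 1537 in E/MB PGCs. Prdm1 signal was detected in 12 of 20 and 9 of 12 knockout cells, and whether its probe set lies in the deleted part is not given in the sources used here.

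The labels were set against marker lists. All 7 germ cell markers were detected in at least 50% of cells in each PGC group. The 8 markers of nascent and posterior mesoderm were so in E/MB mesoderm and in EHF Blimp1+ Hoxb1+ cells. The germ cell list holds Dppa3 and Prdm1 and the mesoderm list holds Hoxb1, which helped to choose the cells. For these genes the match was set by that choice and is no check of the labels. The summed log2 level of the mesoderm list ran from 49.7 to 60.2 over E/MB PGCs and from 71.9 to 82.3 over mesoderm cells, and Pdgfra, Hoxb1, Snai1 and Foxf1 were detected in 0 of 8 E/MB PGCs. In LS/0B precursors the same sum ran from 52.8 to 77.1, so that these 17 cells spanned much of that distance. Of 9 visceral endoderm markers, at most 3 reached 50% of cells in any group, and of 6 blood and endothelium markers at most 1. Of 6 trophoblast markers at most 3 did so, in LS/0B Blimp1 KO cells, where Eomes was detected in 12 of 20, Ascl2 in 11 and Gata3 in 15, against 10, 14 and 8 of 17 LS/0B precursors. Eomes is also a gene of the early streak. The part of such cell mixtures in the results below was not tested.

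Detection separated the genes into those seen nearly everywhere and those seen in some cells only. Over the 11 groups together, Axin2 and Lef1 were each detected in 102 cells, Wnt5b in 92, Rspo3 in 90 and Wnt5a in 84. Porcn was detected in 68 cells, Sp5 in 64, Dkk1 in 41 and Wnt3a in 23. Wnt3 was detected in 0 cells of any group, which allows a share of up to 15% in the 20 LS/0B Blimp1 KO cells and up to 75% in a group of 4, and its highest signal in any cell was 121; a signal under the limit does not show that a gene is silent.

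**Figure D1:**
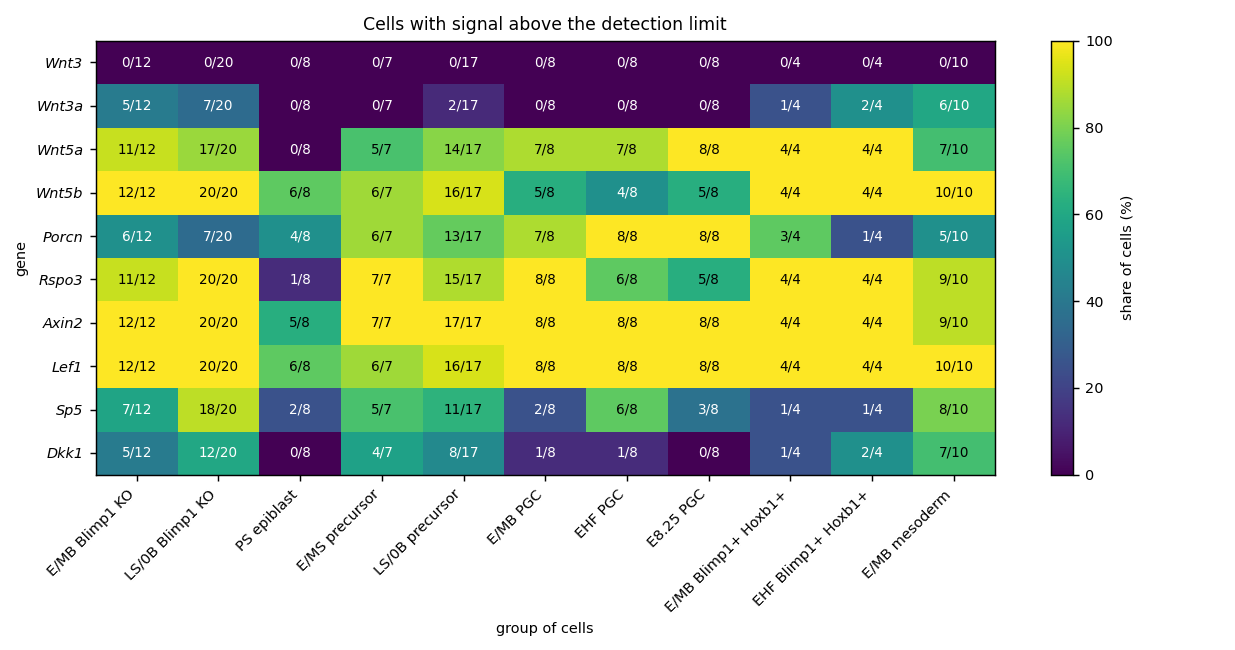
Number and share of cells in which each gene was above the detection limit of its array, with genes down the page and the 11 groups across; colour gives the share in percent. Axin2 and Lef1 reach at least 5 of 8 cells in every group, Wnt3 is at 0 throughout, and Wnt3a is at 0 in PS epiblast, E/MS precursors and all 3 PGC groups.

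Wnt3a, a canonical ligand of the late streak and tailbud, was not seen in PGCs or before the LS/0B stage: 0 of 24 PGCs passed the limit and their highest signal was 49.7. The count of 0 in 8 cells allows a share of up to 37.5% in each PGC group, and counts of this kind limit cells with a signal above the limit, not cells that express the gene. Wnt3a was detected in 6 of 10 mesoderm cells, 5 of 12 E/MB Blimp1 KO cells, 7 of 20 LS/0B Blimp1 KO cells and 2 of 17 LS/0B precursors. With the limit at the 99th percentile of background these counts were 5, 5, 1 and 2. In the Blimp1+ Hoxb1+ cells the signals were 27.6, 31.4, 422 and 27.4 at E/MB, and 173, 75.3, 343 and 27.2 at EHF. Over all cells that had it, the brightest was a mesoderm cell at 1423, and the brightest knockout cell stood at 1252.

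Wnt5a, a ligand of the non-canonical branch, was absent above the limit in PS epiblast and present in most cells of every other group. The highest PS cell had a signal of 136, with a median of 2.93. Along the lineage the median was 621 in E/MS precursors, 549 in LS/0B precursors, 610.4 in E/MB PGCs, 561 in EHF PGCs and 609 in E8.25 PGCs. All 8 E8.25 PGCs were above the limit, with signals from 441 to 1645. The mesoderm cells lay lower, with a lowest signal of 33.8, a median of 282 and a highest of 1671, and 7 of 10 detected. Ordered by mean log2 signal, the 11 groups ran from 9.62 in E8.25 PGCs to 7.93 in mesoderm and 6.25 in PS epiblast, and only the last step exceeded the larger SD of its 2 neighbours (1.56).

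Wnt5b, the close relative of Wnt5a, was lower in PGCs than in LS/0B precursors, where Wnt5a was not. Its mean log2 signal along the lineage was 7.80 in PS epiblast, 9.22 in E/MS precursors, 10.05 in LS/0B precursors, 7.60 in E/MB PGCs, 7.33 in EHF PGCs and 7.96 in E8.25 PGCs, with SDs from 1.26 to 1.58. E/MB PGCs had signals from 5.65 to 514 with a median of 261, against 798 to 2086 with a median of 1147 in E/MB mesoderm, and the groups did not overlap. EHF PGCs had signals from 10.7 to 574 with a median of 149, against 1725, 596, 1136 and 1145 in the EHF Blimp1+ Hoxb1+ cells, again with no overlap. How many of all genes showed no overlap between such small groups is not given here. All 32 knockout cells were above the limit, with signals from 223 to 2120.1 at E/MB and from 143 to 2205 at LS/0B. Their ranges reached below that of mesoderm, as in 3 of 12 E/MB knockout cells, and the lowest lay within the range of PGCs. The order of the 11 groups ran from 10.25 in mesoderm to 7.33 in EHF PGCs, and no step between neighbours exceeded the larger SD.

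Porcn, the X-linked enzyme that acylates Wnt proteins, was highest in later PGCs. Its mean log2 signal was 7.11 in PS epiblast, 8.16 in E/MS precursors, 8.13 in LS/0B precursors, 8.52 in E/MB PGCs, 9.75 in EHF PGCs and 10.05 in E8.25 PGCs. The 16 EHF and E8.25 PGCs had signals from 394 to 2175, and the lowest of them lay above the highest of 32 knockout cells (348) and of 8 Blimp1+ Hoxb1+ cells (381). The share of all genes that separate these cells in this way is not given here. The Blimp1+ Hoxb1+ cells had 381, 146, 225 and 24.5 at E/MB and 24.7, 323, 23.4 and 17.5 at EHF. Mesoderm cells ranged from 6.55 to 599 with a median of 132. In the order of the groups, the step from EHF PGCs (9.75) to E/MB PGCs (8.52) exceeded the larger SD of 1.21, and the other 9 steps did not.

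**Figure D2:**
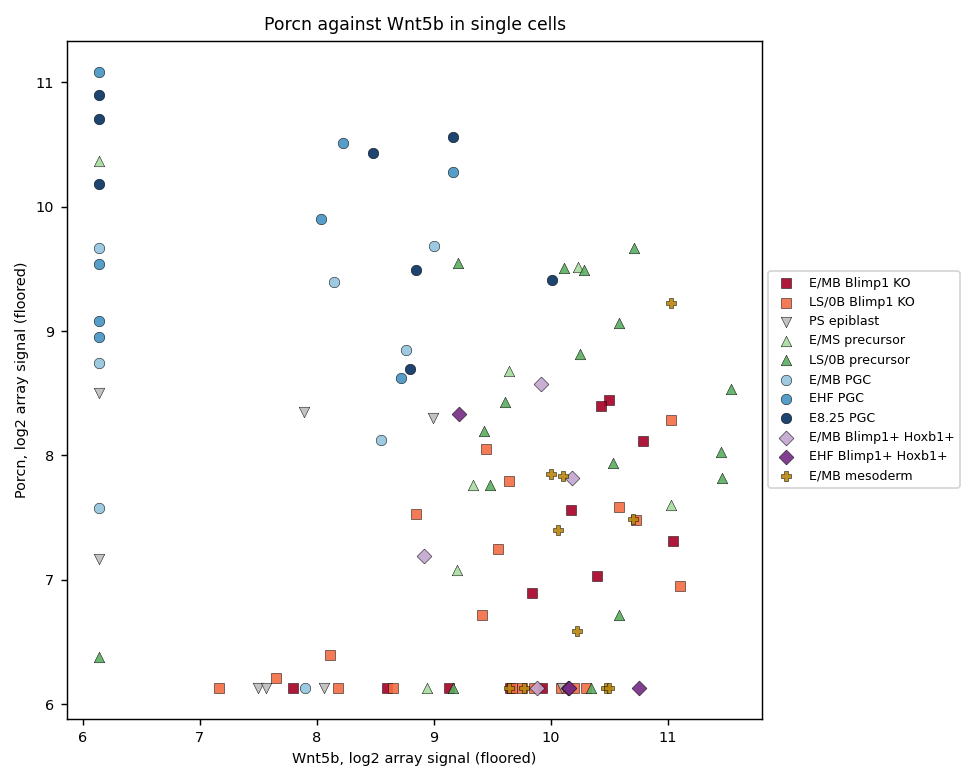
Log2 signal of Porcn (vertical) against that of Wnt5b (horizontal) in every cell, both raised to the floor of 6.13; colours and shapes mark the 11 groups. Most PGCs lie at the upper left, while most knockout, Blimp1+ Hoxb1+ and mesoderm cells lie at the lower right and LS/0B precursors mostly at the right, over a wide range of Porcn.

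Rspo3, which heightens the response to Wnt ligands, was at or near background before the streak and bright at once after it. Of 8 PS cells 1 had a detected signal (189), against 7 of 7 E/MS precursors, which ran from 162 to 989 with a median of 725. E/MB PGCs were the most even of the larger groups, from 840.2 to 1912 with a median of 1203 and an SD of 0.40. The later PGCs were lower and more scattered: 57.0 to 1294 with a median of 481 at EHF, and 8.91 to 809.8 with a median of 192 at E8.25. The Blimp1+ Hoxb1+ cells had 3289.6, 1005, 1622 and 1864 at E/MB and 1899, 1318, 1299.8 and 702 at EHF, which put the E/MB group highest of the 11, at a mean of 10.80 ± 0.70 (SD, n = 4). Of the 8 EHF PGCs 7 lay below all 4 EHF Blimp1+ Hoxb1+ cells.

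Axin2, a scaffold of the destruction complex and a feedback inhibitor, and Lef1, the nuclear partner of beta-catenin, varied less between groups. Axin2 group means ran from 8.51 in PS epiblast to 10.40 in EHF Blimp1+ Hoxb1+ cells, and Lef1 means from 7.74 to 9.83 in the same groups. Without PS epiblast, the lowest means were 9.55 for Axin2, in E8.25 PGCs, and 8.50 for Lef1, in E/MB PGCs. Among PS cells Axin2 signals spread from 12.9 to 1539, so that 5 of 8 were detected and no E/MS precursor was brighter than the brightest of them.

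Sp5 and Dkk1 were the genes that came and went from cell to cell. Sp5 encodes a zinc finger transcription factor, and Dkk1 is a secreted inhibitor that blocks Lrp5 and Lrp6. The promoters of these and of Axin2 are shown as examples of genes detected in some cells (Sp5 in 64, Dkk1 in 41) and in nearly all (Axin2 in 102). Sp5 and Dkk1 did not go together everywhere, with 6 and 1 of 8 EHF PGCs detected. Each run covers 250 bases before to 50 after the annotated start in RefSeq, build GRCm38.p6, and capitals mark the letters CTTTGA or its reverse complement TCAAAG, the core that Lef1 and its relatives recognise.
Sp5 promoter, chr2:70474673-70474972, plus strand: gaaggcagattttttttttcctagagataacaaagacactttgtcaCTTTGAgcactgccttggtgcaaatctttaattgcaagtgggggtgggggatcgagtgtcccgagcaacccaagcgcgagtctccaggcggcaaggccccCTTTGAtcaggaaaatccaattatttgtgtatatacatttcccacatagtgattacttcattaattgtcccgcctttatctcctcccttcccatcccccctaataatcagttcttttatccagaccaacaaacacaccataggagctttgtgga
Dkk1 promoter, chr19:30549447-30549746, minus strand: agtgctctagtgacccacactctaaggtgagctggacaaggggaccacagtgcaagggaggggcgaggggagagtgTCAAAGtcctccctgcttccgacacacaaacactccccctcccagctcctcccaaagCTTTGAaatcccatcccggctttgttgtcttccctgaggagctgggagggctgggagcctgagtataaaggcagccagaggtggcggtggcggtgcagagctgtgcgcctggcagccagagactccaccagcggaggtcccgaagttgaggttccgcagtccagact
Axin2 promoter, chr11:108920099-108920398, plus strand: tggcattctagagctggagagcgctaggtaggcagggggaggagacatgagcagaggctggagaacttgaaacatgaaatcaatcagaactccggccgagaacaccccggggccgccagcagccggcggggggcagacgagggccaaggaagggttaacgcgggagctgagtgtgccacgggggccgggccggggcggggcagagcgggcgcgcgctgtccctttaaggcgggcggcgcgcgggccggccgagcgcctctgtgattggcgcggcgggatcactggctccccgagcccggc
The Sp5 window held CTTTGA at 204 and 104 bases before the start. The Dkk1 window held TCAAAG at 174 and CTTTGA at 117 bases before the start, and these letters are not in the Axin2 window. Of the 32851 mouse promoter windows of this length, 16% held the letters on either strand, the 2 spellings never counting the same bases. Windows were matched for 7 of the 10 genes, with 12 starts in all; among the others, 1 of 4 Lef1 starts and 1 of 3 Wnt5b starts held the letters, and the single windows of Wnt3 and Wnt3a did not. The Lef1 start with the letters had TCAAAG at 180 and 120 bases before it, and Lef1, like Axin2, was detected in 102 cells. A match is a description of letters and does not show binding, and a link of the letters to detection was not tested.

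Sp5 signals reached 2980.0 in E/MS precursors (median 688, 5 of 7 detected) and 2946 in LS/0B precursors (median 433, 11 of 17). E/MB PGCs had a median of 9.48 and a highest signal of 527, with 2 of 8 detected, EHF PGCs a median of 172 with 6 of 8, and E8.25 PGCs a median of 2.91 with 3 of 8. In the Blimp1+ Hoxb1+ cells the signals were 1, 1, 197 and 1 at E/MB and 113, 1, 1 and 1 at EHF. Sp5 was detected in 18 of 20 LS/0B Blimp1 KO cells (median 599) and in 8 of 10 mesoderm cells (median 806).

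Dkk1 was detected in 4 of 7 E/MS precursors, 8 of 17 LS/0B precursors, 12 of 20 LS/0B Blimp1 KO cells, 5 of 12 E/MB Blimp1 KO cells and 7 of 10 mesoderm cells. Above the 99th percentile of background, 5 LS/0B precursors remained. It was detected in 2 of 24 PGCs and in 0 of 8 PS cells, where the highest signal was 12.1. The 2 PGCs stood far above the rest of their groups, with 455 at E/MB and 929 at EHF, where the next highest cells had 19.4 and 12.5. Mesoderm cells ran from 5.36 to 3529 with a median of 660.5, and the brightest cell of all was an LS/0B precursor at 4335.

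**Figure D3:**
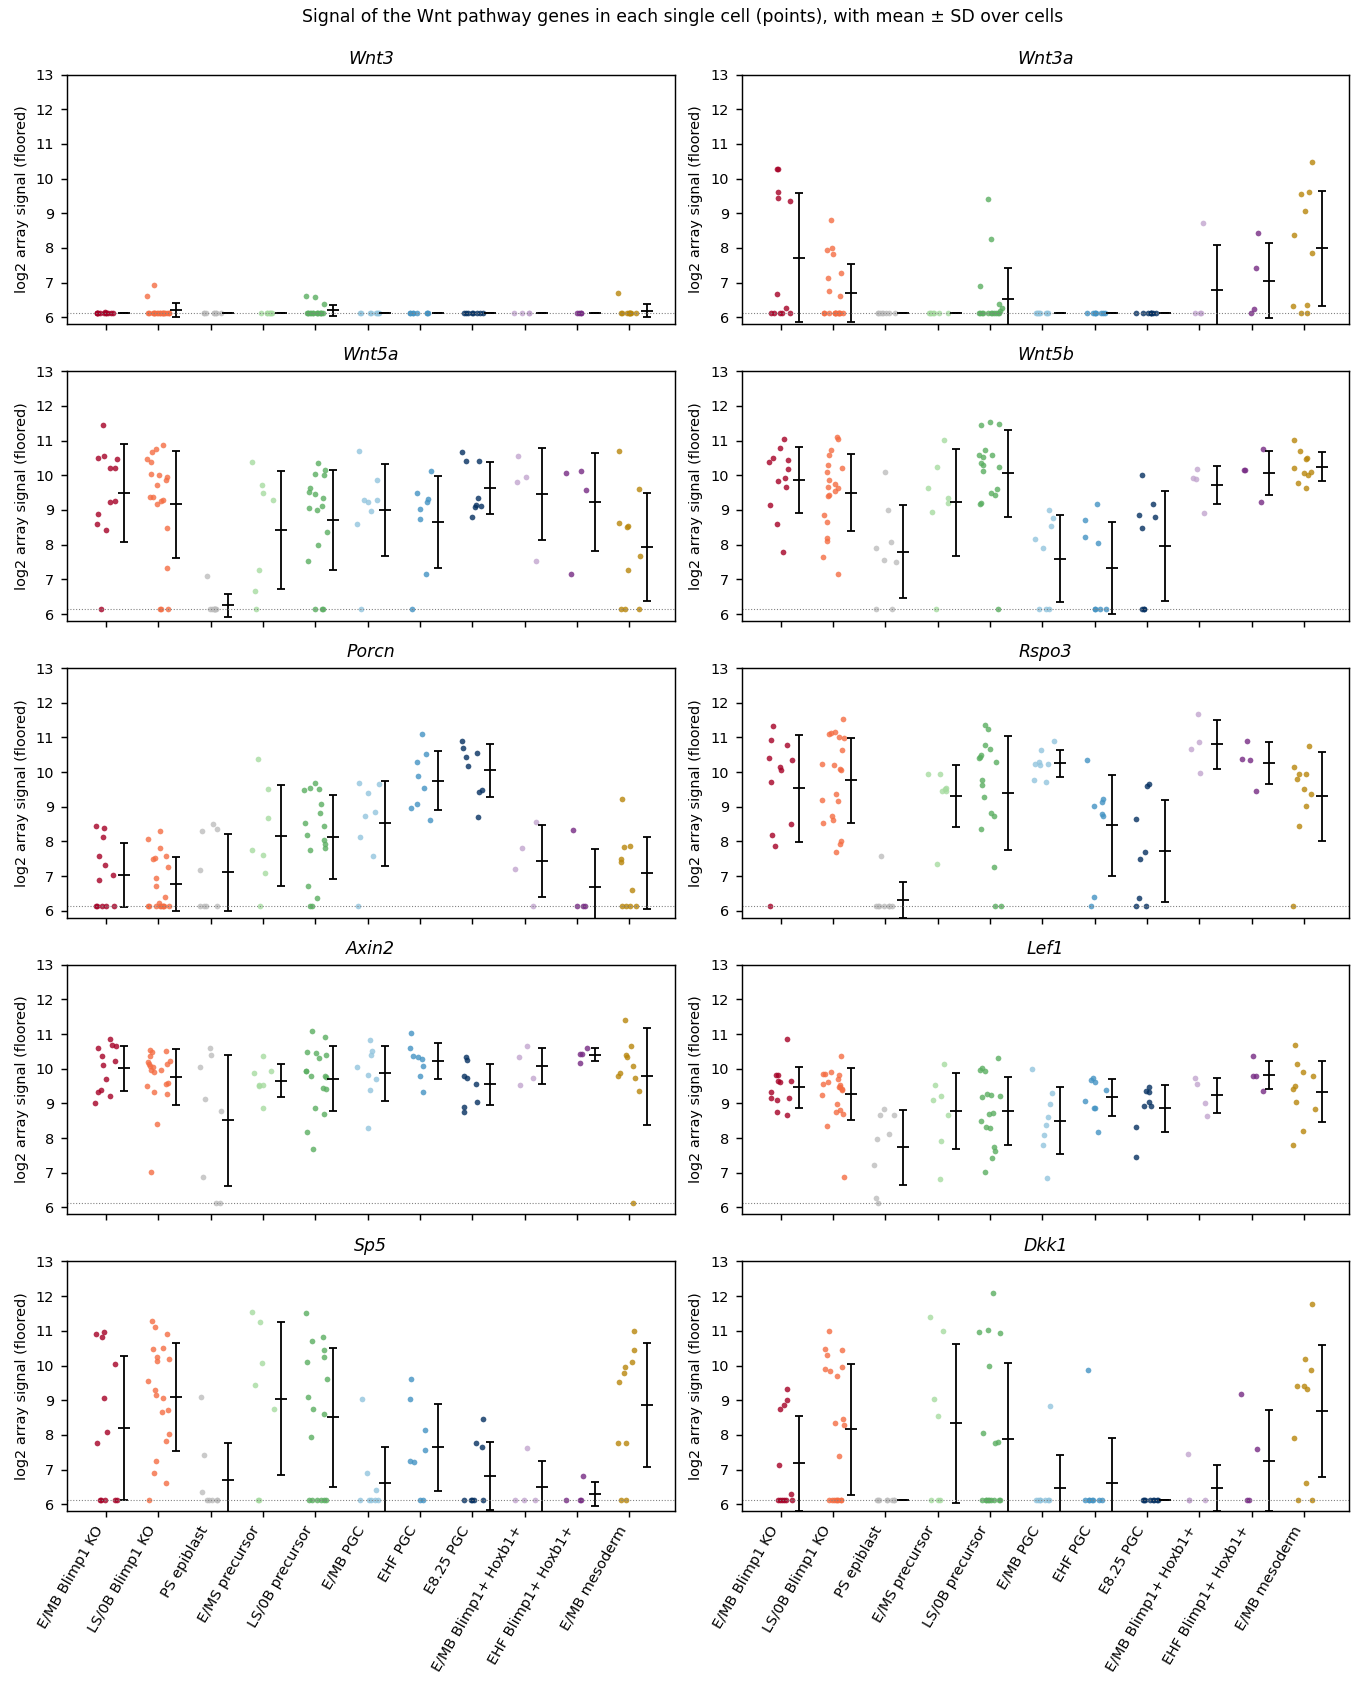
Log2 signal of each gene in every cell (points), with the group mean and SD over cells in black and the floor as a dotted line; the 11 groups run across each panel. Porcn is highest in EHF and E8.25 PGCs, Wnt5b has its lowest means in EHF and E/MB PGCs, followed by PS epiblast and E8.25 PGCs, and Sp5 and Dkk1 split many groups into cells at the floor and bright cells.

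From PS epiblast to E/MS precursors, 8 of the 10 genes had a mean at least 1 log2 unit above that of PS epiblast and 0 lay as far below, where 2.67% of all genes were higher and 2.94% lower by that much. The differences were 3.0 for Rspo3, 2.35 for Sp5, 2.20 for Dkk1, 2.17 for Wnt5a, 1.42 for Wnt5b, 1.15 for Axin2, 1.06 for Porcn and 1.04 for Lef1, and the list's median was 1.28 against 0 over all genes. Against a PS group with no detected cell, Wnt5a was at least 1.42-fold and Dkk1 at least 1.44-fold higher. Of the 7 precursors, 6 lay above every PS cell in Rspo3 after flooring, 5 in Wnt5a and 4 each in Sp5 and Dkk1, while Axin2 had 0 such cells. Xist was detected in 0 of 7 E/MS precursors and 8 of 8 PS cells, so the stage and what goes with Xist cannot be told apart here. Single cells carry the smaller differences: without 1 cell, Porcn stood as low as 0.69, Lef1 at 0.81 and Axin2 at 0.81.

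Between E/MS and LS/0B precursors none of the 10 genes differed by 1 log2 unit, where 1.48% of all genes were higher and 1.47% lower. Wnt5b came closest at 0.84.

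From LS/0B precursors to E/MB PGCs, Wnt5b was lower by 2.46, Sp5 by 1.89 and Dkk1 by 1.40 log2 units, 3 of 10 genes where 2.66% of all genes were lower. None was higher, where 2.96% of all genes were. With the 8 precursors that had Xist left out, the differences were -2.45, -2.34 and -1.98, and Rspo3 stood at 1.79 in place of 0.85. Groups overlapped for all 3 genes. In Sp5 and Dkk1 many precursors lay at background like most PGCs, while in Wnt5b the overlap rested on 1 precursor, replicate 6 at 14.5, and the other 16 lay above the highest PGC (514).

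From E/MB to EHF PGCs, Porcn was higher by 1.23 and Sp5 by 1.02, where 1.92% of all genes were higher, and Rspo3 was lower by 1.78, where 2.25% were lower. Of the 8 EHF PGCs, 7 had less Rspo3 signal than every E/MB PGC and 4 had more Porcn than every E/MB PGC. Porcn stood at 0.89 without E/MB PGC replicate 8 and Sp5 at 0.73 without EHF PGC replicate 6. From EHF to E8.25 PGCs 0 genes passed 1 log2 unit in either direction, where 1.71% of all genes were higher and 1.53% lower. Wnt5a was higher by 0.97, Sp5 lower by 0.82 and Rspo3 lower by 0.75. Within EHF PGCs, Wnt5b was detected in 4 of 5 cells with Xist and in 0 of 3 cells without it, with means of 8.05 and 6.13. With the Xist cells left out, the Wnt5b difference was -1.46 between EHF and E/MB PGCs and 1.83 between E8.25 and EHF PGCs.

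E/MB PGCs and mesoderm of the same stage differed in 6 of the 10 genes. The differences were -2.66 for Wnt5b, -2.24 for Sp5, -2.21 for Dkk1 and -1.86 for Wnt3a, all lower in PGCs, where 3.62% of all genes were lower, and Wnt3a was at least 1.82-fold lower. Porcn was higher by 1.43 and Wnt5a by 1.07, where 8.43% of all genes were higher. Porcn was above all mesoderm cells in 3 of 8 PGCs, and Wnt5b was the gene whose cells did not overlap. The share of all genes without overlap between PGCs and mesoderm is not given here. Scaled to the 3 lys control probe sets of each array, the whole comparison shifted: the median of 7250 broadly detected genes stood at -0.40 in place of 0.16, the shares of all genes to 3.81% higher and 9.61% lower, and Porcn and Wnt5a to 0.88 and 0.50. Wnt5b kept a difference of -3.12 on that scale. The Wnt5a difference was under 1 in 6 of the 7 alternative settings, which ranged from 0.36 to 1.48, and it was under 1 without any 1 of 6 single cells, at 0.83 without E/MB PGC replicate 8. Hybridisation controls were at 9.31 to 9.79 on the arrays of E/MB PGCs and at 10.61 to 11.53 on those of mesoderm, and their part in the differences was not tested.

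Against Blimp1+ Hoxb1+ cells, PGCs had less Wnt5b at both stages, by 2.13 at E/MB and 2.74 at EHF, and more Porcn, by 1.09 and 3.06. With the probe sets used, these were the only genes past 1 log2 unit at E/MB. Of all genes, 5.21% were higher and 5.52% lower there. A second Wnt5a probe set gave -1.13 at E/MB and -2.14 at EHF, where the one used gave -0.46 and -0.58. Without E/MB Blimp1+ Hoxb1+ replicate 4 the Porcn difference was 0.66. At EHF, Sp5 was also higher, by 1.34, and Rspo3 lower, by 1.79, making 2 genes each way where 6.94% of all genes were higher and 5.54% lower. The 8 EHF PGCs lay above all 4 Blimp1+ Hoxb1+ cells in Porcn and below all 4 in Wnt5b. The share of all genes without overlap between these groups is not given here, so how rare this is cannot be told. With the EHF PGCs that had Xist left out, 3 PGCs remained, set against all 4 Blimp1+ Hoxb1+ cells, 1 of which had Xist. The EHF differences were then 3.18 for Porcn and -3.94 for Wnt5b.

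Porcn was lower in Blimp1 knockout cells at both stages. At LS/0B, knockout cells had signals from 4.24 to 313 with a median of 79.1, against 16.1 to 815 with a median of 293 in LS/0B precursors, and 7 of 20 were detected against 13 of 17. The ranges overlapped. Above the 99th percentile of background the counts were 1 of 20 and 10 of 17. The difference of -1.35 made Porcn the 1 gene of 10 past the size limit, where 0.390% of all genes were lower by 1 log2 unit and 1.06% higher. It was -1.33 without the precursors that had Xist and between -1.48 and -1.26 without any single cell. Without the precursors that had Xist, Rspo3 also passed the limit, higher in knockout cells by 1.30 in place of 0.37.

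At E/MB, knockout cells had Porcn signals from 5.27 to 348 with a median of 125, against 30.4 to 822 with a median of 444 in E/MB PGCs, a difference of -1.48 where 3.61% of all genes were lower. Wnt5b was higher in knockout cells by 2.26, Wnt3a by 1.58 and Sp5 by 1.57, where 4.0% of all genes were higher, and Wnt3a was at least 1.28-fold higher. In Wnt5b 10 of 12 knockout cells lay above every PGC. Scaled to the lys controls, 13.1% of all genes were higher and 1.13% lower, the median of broadly detected genes stood at 0.68 in place of 0.01, and the differences were 2.82 for Wnt5b, 1.92 for Sp5, 1.89 for Wnt3a and -0.83 for Porcn. The comparison sets cells that lack Blimp1 against cells that were chosen for it and for Dppa3, and it uses the same E/MB PGCs as those above.

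Set against E/MB mesoderm, whose arrays stood apart as above, E/MB knockout cells had more Wnt5a, by 1.56, and less Dkk1, by 1.50, where 6.89% of all genes were higher and 1.29% lower. The other 8 genes lay within 0.67, and Wnt5b, Porcn and Wnt3a stood at -0.39, -0.06 and -0.27. Between the knockout stages, only Wnt3a passed the limit, higher at E/MB by 1.02, where 0.544% of all genes were higher and 0.676% lower. It fell short of 1 without any 1 of the 5 E/MB cells in which it was detected, and without any 1 of 12 LS/0B cells.

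**Figure D4:**
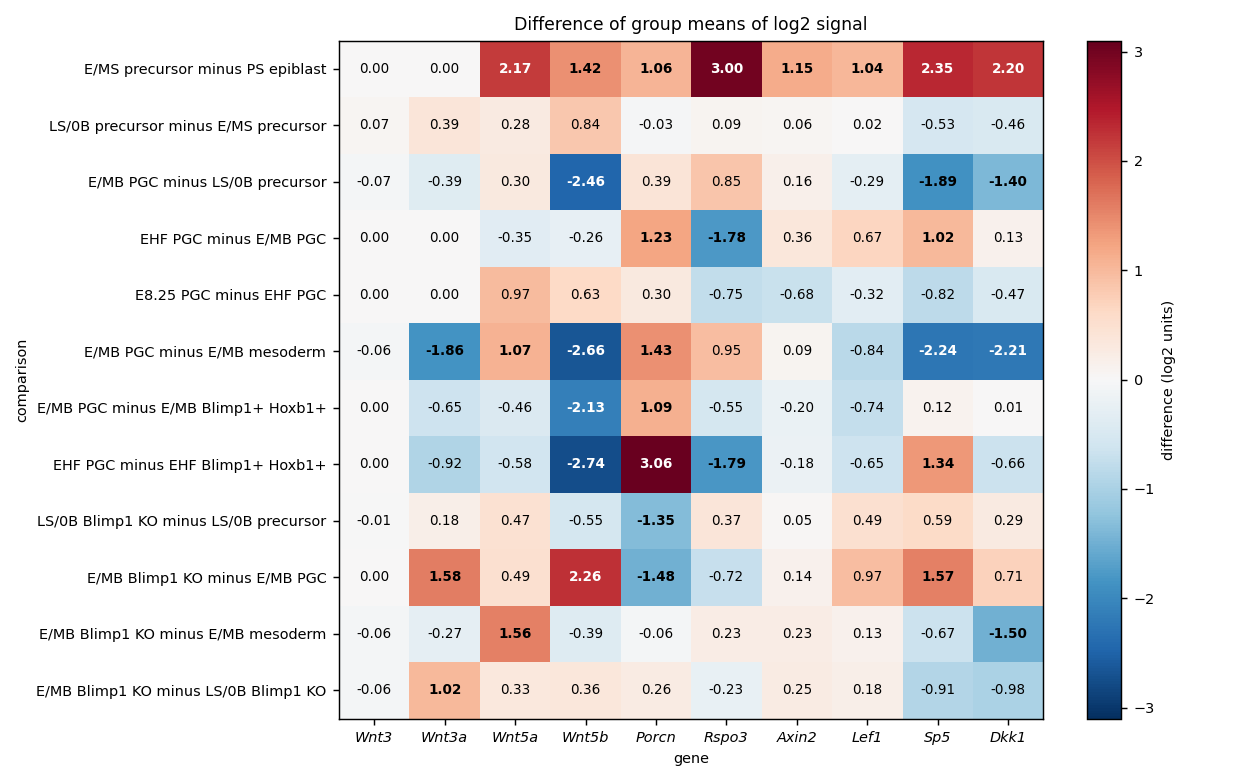
Difference of group means of log2 signal for each gene (columns) in the 12 comparisons (rows, named group minus group), with bold type at 1 log2 unit or more. The Porcn column is positive wherever PGCs are set against mesoderm or Blimp1+ Hoxb1+ cells and negative wherever knockout cells are set against precursors or PGCs, and the Wnt5b column runs the other way except at LS/0B, where knockout cells stand at -0.55.

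Within the 17 LS/0B precursors, Dkk1 divided the cells along with Hoxb1, Sox2 and Dppa3. All 8 cells with Dkk1 also had Hoxb1, and 0 of them had Sox2, a pluripotency and germ cell factor. Mesp1, a mesoderm factor, was detected in these 8 and in 16 of the 17 cells in all. Of the 9 cells without Dkk1, 7 had Sox2 and 3 had Hoxb1. Dppa3, the early PGC marker, was detected in 1 of 8 cells with Dkk1 and in 7 of 9 without it. Wnt5b did not follow this division, since it was detected in 16 of 17 cells, and Sp5 followed it in part, in 6 of 8 cells with Dkk1 and 5 of 9 without. Xist was detected in 2 of the 8 cells with Dkk1 and in 6 of the 9 without. Cells with Xist had more Rspo3 than those without, by 1.99, and less Dkk1 and Sp5, by -1.23 and -0.96, while Porcn and Wnt5b differed by 0.04 and 0.02. The gene pairs were looked at with the values known, and the part of Xist status in the division was not tested.

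**Figure D5:**
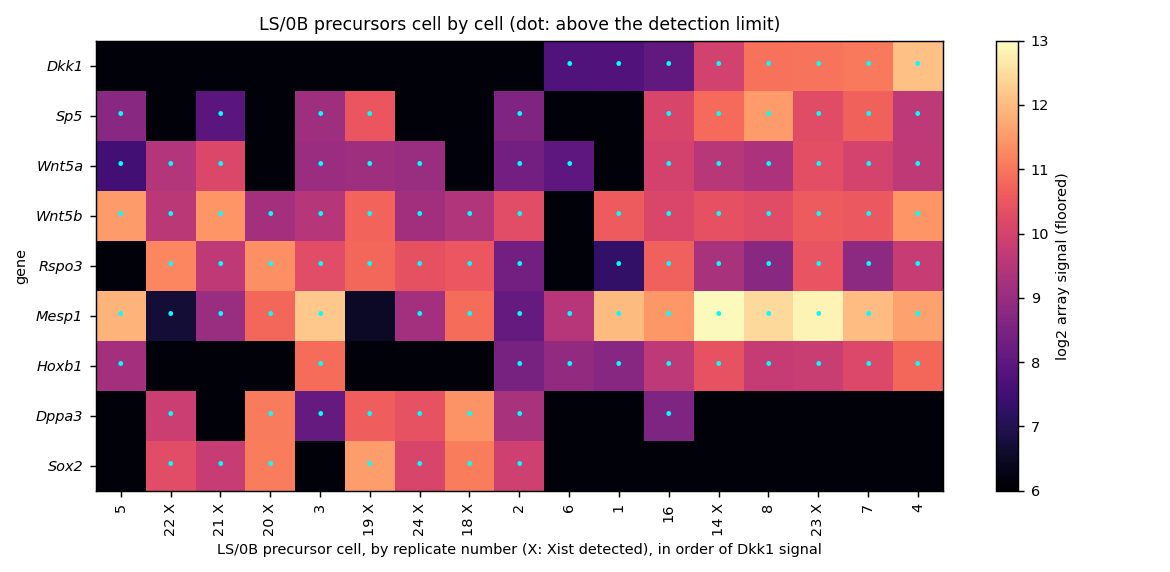
Log2 signal of 5 Wnt genes and 4 markers (rows) in the 17 LS/0B precursors (columns), ordered by Dkk1 signal, with X where Xist was detected and a dot where the gene was above the limit. The 8 cells at the right have Dkk1 and Hoxb1 and no Sox2, and the Sox2 cells lie among the 9 at the left.

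Among the 12 E/MB knockout cells, Wnt3a and Sp5 were bright in the same cells. The 5 cells with Wnt3a had Sp5 signals of 534 to 2000.3 and all 5 were detected. The 7 cells without Wnt3a had Sp5 signals of 1 to 269, with 2 detected. Dkk1 was detected in 4 of the 5 and in 1 of the 7, while Axin2 and Lef1 were detected in all 12. Wnt5b signals ran from 1156 to 2120 in the 5 and from 223 to 1448 in the 7. Over these 12 cells the Pearson correlation of Wnt3a was 0.92 with Sp5, 0.74 with Dkk1, 0.70 with Wnt5b and 0.64 with Porcn. With Rspo3 it was 0.56, with Lef1 0.46, with Axin2 0.14 and with Wnt5a -0.31. At LS/0B, 7 of 7 knockout cells with Wnt3a and 11 of 13 without it had Sp5. In mesoderm the counts were 5 of 6 with and 3 of 4 without, so the split was less clear in these groups. Only 1 LS/0B knockout cell had Wnt3a above the 99th percentile of background. In LS/0B precursors 0 of the 2 cells with Wnt3a had Sp5, and 11 cells had Sp5 without Wnt3a, so the pairing was not seen there. Of the EHF Blimp1+ Hoxb1+ cells with Wnt3a, 1 had Sp5 and 1 did not, and the 1 such E/MB cell had Sp5. Over the cells of all groups, the highest Pearson correlation among the genes other than Wnt3 was that of Sp5 with Dkk1 (0.56). By Spearman correlation the highest was that of Wnt3a with Wnt5b (0.56), against 0.52 for Sp5 with Dkk1. Both are over cells that share group, stage and array set.

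Where a gene had several probe sets, the brightest was used, and the others differed in how much they saw. The second Wnt5b probe set was detected in 79 cells and gave -2.87 for E/MB PGCs minus mesoderm, -2.67 for EHF PGCs minus Blimp1+ Hoxb1+ cells and 2.28 for E/MB knockout cells minus PGCs. The Wnt5a probe set used was detected in 84 cells and the other 3 in 46, 19 and 4. The one detected in 46 cells gave -1.13 and -2.14 for PGCs minus Blimp1+ Hoxb1+ cells at E/MB and EHF. It gave 0.36 for E/MS precursors minus PS epiblast, where the one used gave 2.17. The second Axin2 probe set was detected in 0 cells, and the second Rspo3 probe set in 18. For E/MS precursors minus PS epiblast that Rspo3 probe set gave 0 against 3.0, and it was detected in 0 cells of either group. For EHF PGCs minus Blimp1+ Hoxb1+ cells it gave -0.04 against -1.79, with 1 cell of each group detected. The second Dkk1 probe set was detected in 14 cells, against 41. It gave 0.38 for E/MS precursors minus PS epiblast and -0.69 for E/MB PGCs minus LS/0B precursors, against 2.20 and -1.40. For E/MB PGCs minus mesoderm it gave -0.24 against -2.21, and for E/MB knockout cells minus PGCs -0.17 against 0.71. A second Lef1 probe set was detected in 8 of 10 mesoderm cells, 0 of 8 E/MB PGCs and 2 of 12 E/MB knockout cells, and gave -1.43 for PGCs minus mesoderm where the brighter one gave -0.84.

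Other genes of the pathway were taken from 8 lists of 89 symbols, of which 84 were measured. From PS epiblast to E/MS precursors 8 were higher by the same size limit and 3 lower, where the shares of all genes were 2.67% and 2.94%. Mixl1, a streak homeobox gene, was higher by 3.50 and Frzb, a secreted Wnt antagonist, by 2.61, while the receptor Fzd2 was lower by 2.11 and Tcf7l1, a mostly repressive nuclear factor, by 1.31. From E/MS to LS/0B precursors, where 3 were higher and 7 lower beside 1.48% and 1.47% of all genes, the posterior homeobox gene Cdx2 was higher by 2.22 and the Wnt5a receptor Ror2 by 1.28, and Fzd7 was lower by 1.96 and Frzb by 1.64.

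From LS/0B precursors to E/MB PGCs, 4 of the 84 were higher and 7 lower, beside 2.96% and 2.66% of all genes. Notum, the enzyme that removes the lipid from Wnt proteins, was higher by 1.99 and detected in 8 of 8 PGCs against 9 of 17 precursors, and the R-spondin receptor Lgr4 was higher by 1.67. Mixl1 was lower by 2.87 and Myc by 1.29, Myc being detected in 0 of 8 PGCs and 10 of 17 precursors. From E/MB to EHF PGCs, where 4 were higher and 3 lower beside 1.92% and 2.25% of all genes, Cdx1 was higher by 2.25 and Znrf3, the ligase that removes Frizzled receptors, by 1.68. Wls, the carrier of Wnt proteins on their way out of the cell, was lower by 1.31 and the casein kinase Csnk1d by 1.21. Between EHF and E8.25 PGCs 0 were higher and 6 lower, beside 1.71% and 1.53% of all genes, among them the co-repressor Tle3 by 1.80 and the scaffold Axin1 by 1.59.

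E/MB PGCs had 13 pathway genes higher and 9 lower than mesoderm, where 8.43% of all genes were higher and 3.62% lower; on the lys scale these shares were 3.81% and 9.61%. Lgr4 was higher by 3.16 and Sp8, a relative of Sp5, by 2.70, with signal in 8 of 8 PGCs against 1 of 10 cells of the mesoderm, while Mixl1 was lower by 2.99 and Cdx1 by 2.46. Of the 12 measured genes in the list of other targets, 7 were lower and 2 higher. That list holds Cdx1 and Msgn1, which are also in the mesoderm marker list, and the part of cell type in these counts was not tested. Against Blimp1+ Hoxb1+ cells, 7 were higher and 8 lower at E/MB, beside 5.21% and 5.52% of all genes, and 8 higher and 9 lower at EHF, beside 6.94% and 5.54%. Notum was higher by 1.87 and 2.60, Myc was lower by 3.87 at E/MB, and Wls was lower by 3.42 at EHF, with means of 7.47 ± 1.50 in EHF PGCs (SD, n = 8) and 10.89 ± 0.33 in EHF Blimp1+ Hoxb1+ cells (SD, n = 4).

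In LS/0B knockout cells 5 pathway genes were higher than in precursors and 0 lower, where 1.06% of all genes were higher and 0.390% lower. Myc was higher by 1.72, detected in 20 of 20 knockout cells and 10 of 17 precursors, and the casein kinase Csnk1e by 1.43. Fzd8 was detected in 0 of 20 knockout cells and 11 of 17 precursors, with a difference of -0.98. At E/MB, 8 were higher and 6 lower than in PGCs, beside 4.0% and 3.61% of all genes, or 13.1% and 1.13% on the lys scale. The leading genes were Myc by 3.45 and Csnk1e by 2.25 higher, Sp8 by 1.75 and Frzb by 1.71 lower. Against mesoderm, where 6.89% of all genes were higher and 1.29% lower, 12 were higher, with Wls at 2.18 and Tnfrsf19 at 2.09, and 3 lower, with Msgn1 at -1.90 and Mixl1 at -1.68. Between the knockout stages, 4 were higher at E/MB and 5 lower, beside 0.544% and 0.676% of all genes, with Cdx2 higher by 2.29 and Fzd7 lower by 2.27.

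The genes most like each Wnt gene were sought among 9719 genes, the 10 themselves left out, by Pearson correlation of log2 signal over the cells of all 11 groups, which share group, stage and array set. Porcn was most like Dppa3 (0.70), Syt2 (0.70) and Dnd1 (0.66). Wnt5b was most like Mesp1 (0.64), Hoxb1 (0.56) and Fst (0.54). For Rspo3 the genes were Chst7 (0.65), Rftn1 (0.61) and Crot (0.60), for Wnt5a Fn1 (0.59), Phlda2 (0.51) and Slc38a4 (0.49). For Sp5 they were Efna3 (0.57), Gas1 (0.56) and Snai1 (0.54), for Dkk1 Aplnr (0.54), Wnt2 (0.54) and Efna3 (0.53), and for Wnt3a Mxd3 (0.54), Hoxb2 (0.50) and Lgals3 (0.49). Lef1 reached 0.51 with Phlda2 and Axin2 0.39 with Msx1. Dppa3 and Hoxb1 were themselves used to choose cells.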

How the data were processed

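Single cells were picked at random from dissociated embryo fragments, and their cDNA was amplified by PCR and labelled for Affymetrix arrays, per the labels' protocols. The deposited values are linear signal intensities, which the authors computed in MAS5, as the submitters' processing notes list; the scaling target is not given in the sources used here. The table held 45101 probe sets for 106 cells, with 15.3% of values at 1 and 1 missing. After 64 control probe sets were left out, 34945 probe sets named 1 gene, giving 18193 genes; the probe set with the highest mean stood for a gene. The platform annotation used for names can be old.

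Values were raised to a floor of 70.2, the median over cells of the 90th percentile of 126 probe sets for olfactory, vomeronasal and taste receptors and keratin-associated proteins, and log2 transformed. Detection used the 95th percentile of these probe sets on each array. Group means were compared in 12 pairs by a size limit of 1 log2 unit, with no test. Genes named in the text are the 10 members, markers, Xist, up to 2 pathway genes each way per comparison among those detected in at least 50% of cells of the higher group, and the 3 most correlated genes among those detected in at least 20 cells. Members and lists were chosen with earlier results of these data known. A lower bound on a fold sets the brighter group's mean against the higher of each dim cell's detection limit and its own signal. Upper limits for counts of 0 are 3 cells of the group. The processing was tested on simulated data. Alternatives changed the floor, probe set rule, scaling and cells included. Python 3.11.15, pandas 2.3.3, numpy 2.4.6, SciPy 1.17.1 and matplotlib 3.10.9 were used.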

Additional observations from a re-analysis of the deposited data

Results flagged for a closer look

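In 17 of the 66 sets of 1 gene in 1 group of 4 to 10 cells, the highest or lowest cell stood apart from the others by Dixon's 95% criterion; chance alone gives about 1 such set in 20, and values at the floor tie, which makes a single bright cell stand apart easily. No cause was weighed.

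In PS epiblast, replicate 5 was highest in Wnt5a, at a log2 signal of 7.09 that was still under its detection limit, and in Rspo3, at 7.57, while replicate 3 was highest in Sp5, at 9.09. In E/MS precursors, replicate 5 was lowest in Wnt5b, at 6.13, and replicate 7 lowest in Rspo3, at 7.34.

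In E/MB PGCs, replicate 1 was lowest in Wnt5a, at 6.13, replicate 7 highest in Sp5, at 9.04, and replicate 6 highest in Dkk1, at 8.83. In EHF PGCs, replicate 5 was highest in Dkk1, at 9.86.

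In the E/MB Blimp1+ Hoxb1+ group, replicate 3 was the 1 cell with Wnt3a, at 8.72, with Sp5, at 7.62, and with Dkk1, at 7.45, and it was also the 1 cell of that group with Xist. In the EHF Blimp1+ Hoxb1+ group, replicate 2 was highest in Porcn, at 8.34, and replicate 1, the cell with Xist, was highest in Sp5, at 6.82.

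In E/MB mesoderm, replicate 9 was highest in Wnt3, at 6.70 and under its detection limit, replicate 4 lowest in Rspo3, at 6.13, and replicate 7 lowest in Axin2, at 6.13.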

How the results depend on the processing

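No difference of at least 1 log2 unit changed sign under an alternative floor, mean of the probe sets, scaling or choice of cells. With a second probe set alone, 2 did. Lef1 stood at -0.05 for E/MS precursors minus PS epiblast, with that set detected in 0 cells of either group. Rspo3 stood at 0.03 for EHF minus E/MB PGCs, with that set detected in 1 cell of each. No paired analysis was possible because each cell is a sample of its own, no embryo is named, replicate numbers do not link groups, and no test was made. Of 204 counts of genes past 1 log2 unit recomputed under alternatives, 45 moved by over 1.5 times, and 32 of 900 differences moved beyond 1 SD. With the detection limit at the 99th percentile of background, 18 of 110 counts of detected cells moved by over 1.5 times: Porcn stood at 1 of 12 E/MB and 1 of 20 LS/0B knockout cells, 1 of 10 mesoderm cells, 1 of 4 E/MB and 0 of 4 EHF Blimp1+ Hoxb1+ cells and 3 of 7 E/MS precursors, while all 16 EHF and E8.25 PGCs kept it. Cells per group limit the precision, and signals near the background have no order.

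The counts that moved are given as numbers of the 10 genes. Without a floor, E8.25 minus EHF PGCs had 1 higher and 2 lower, E/MB PGCs minus Blimp1+ Hoxb1+ cells 2 higher and 2 lower, EHF PGCs minus Blimp1+ Hoxb1+ cells 5 lower, LS/0B knockout cells minus precursors 2 higher, E/MB knockout cells minus PGCs 5 higher, knockout cells minus mesoderm 2 lower and E/MB minus LS/0B knockout cells 2 lower, and LS/0B minus E/MS precursors and E/MB PGCs minus LS/0B precursors had 1 higher each. With a floor at the 95th percentile, E/MS precursors minus PS epiblast had 5 higher, EHF minus E/MB PGCs 1, E/MB PGCs minus mesoderm 1, E/MB PGCs minus Blimp1+ Hoxb1+ cells 0, EHF PGCs minus Blimp1+ Hoxb1+ cells 1 and E/MB minus LS/0B knockout cells 0. With the mean of the probe sets, E/MS precursors minus PS epiblast had 5 higher, EHF minus E/MB PGCs 0 lower, E/MB PGCs minus mesoderm 1 higher, EHF PGCs minus Blimp1+ Hoxb1+ cells 1 lower, and knockout cells minus mesoderm 0 either way; some of the probe sets averaged there were detected in few cells. With quantile normalization, E/MB PGCs minus mesoderm had 1 higher. Scaled to the lys controls, that comparison had 0 higher, EHF PGCs minus Blimp1+ Hoxb1+ cells 1 higher, and E/MB knockout cells minus PGCs 5 higher and 0 lower. Without cells that had Xist, E/MB PGCs minus LS/0B precursors had 1 higher, EHF minus E/MB PGCs 2 lower, E8.25 minus EHF PGCs 2 higher and 1 lower, and LS/0B knockout cells minus precursors 1 higher. With detection asked in at least 50% of cells of the higher group, E/MB minus LS/0B knockout cells had 0 higher.

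With 1 cell left out in turn, counts ranged from 0 to 1 higher and 0 to 1 lower for LS/0B minus E/MS precursors, 0 to 2 higher for EHF minus E/MB PGCs, 0 to 1 higher and 0 to 2 lower for E8.25 minus EHF PGCs, 1 to 3 higher for E/MB PGCs minus mesoderm, 0 to 1 higher and 1 to 2 lower for E/MB PGCs minus Blimp1+ Hoxb1+ cells, 2 to 5 lower for EHF PGCs minus Blimp1+ Hoxb1+ cells, and 0 to 1 higher and 0 to 2 lower for E/MB minus LS/0B knockout cells. Except for the effect of leaving out cells or averaging probe sets, which follows from their construction, the cause was not tested. Scaled to the lys controls, the median of 7250 broadly detected genes also moved to 0.34 for E/MS precursors minus PS epiblast, -0.31 for LS/0B minus E/MS precursors, -0.41 for E/MB PGCs minus LS/0B precursors and 0.34 for EHF minus E/MB PGCs. The shares of all genes higher and lower were then 5.90% and 1.50%, 0.676% and 3.77%, 1.19% and 5.98%, and 3.93% and 0.726% in these 4 comparisons.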
